A study of Homo sapiens with 6 samples.

Results

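The D-type cyclins, their kinases CDK4 and CDK6, the CDK inhibitors and the retinoblastoma protein form the G1 checkpoint of the cell cycle. The 10 genes described here, CCND1, CCND2, CCND3, CDK4, CDK6, CDKN1A, CDKN1B, CDKN2B, CDKN2C and RB1, were chosen by name, and all 10 are among the 20020 genes of the deposited count table. They were measured by RNA-seq of polyadenylated RNA in 786-O cells, an established human clear cell renal carcinoma line that lacks functional VHL. The knockdown samples carry a short hairpin RNA against IGF2BP2, an RNA-binding reader of N6-methyladenosine (m6A), and the control samples are labelled puro, a word the labels do not spell out. The labels list 3 samples of each kind, but the tables hold 9 columns: 3 named shIGF2BP2-3, called set 3, 3 named shIGF2BP2-2, called set 2, and 3 named puro. No label says whether the sets are separate hairpins, or whether the columns of a set are separate cultures, so the tests measure only the spread between these columns, which may be technical. All samples come from 1 cell line.

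D-type cyclins bind CDK4 or CDK6, and the active complexes phosphorylate RB1 and its relatives, which releases E2F transcription factors and lets cells enter S phase. INK4 inhibitors, among them CDKN2B (p15) and CDKN2C (p18), bind CDK4 and CDK6 directly. CDKN1A (p21) and CDKN1B (p27) block CDK2 complexes and also take part in cyclin D-CDK assembly. In clear cell renal carcinoma without VHL, CCND1 is a known target of the hypoxia factor HIF-2. The comparisons ask which of these G1 genes differ in mRNA level after the knockdown, and whether they differ alike in both sets.

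The columns held 39887632 to 47470019 counts in set 3, 36830670 to 44298674 in set 2 and 33821216 to 37143673 in puro. The targeted gene IGF2BP2 averaged 33.7 ± 2.26 CPM in set 3, 23.9 ± 1.11 CPM in set 2 and 76.8 ± 2.10 CPM in puro (SD, n = 3 columns each). CPM are counts scaled to library size, with TMM factors that correct for differences in library composition. Of 12 markers of clear cell renal carcinoma or renal tubule, 10 reached a mean of 1 CPM in every arm, among them PAX8, and CA9 and NDUFA4L2 stayed under it. Summed markers of endothelium and of stroma stayed at or under 1.21 CPM in every column. Among leukocyte markers, CD68 averaged 25.6 CPM in set 3, 44.4 CPM in set 2 and 25.04 CPM in puro, while PTPRC and CD3E averaged under 0.06 CPM in every arm.

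Of the 10 genes, 8 passed the filter on low counts and 2 did not. CCND2, which encodes the second D-type cyclin, had 0 counts in all 9 columns, where a limit of 3 counts corresponds to 0.0632 to 0.0887 CPM in a column. CDKN2B had 1 count in 1 set 3 column and 0 in the other 8. Its neighbour on chromosome 9, CDKN2A, the other INK4 gene there and no part of the set, had 8 counts in all, spread over 3 columns. Counts of this size give no fold change. The measurable D-type cyclins were therefore CCND1 and CCND3, and CDKN2C was the INK4 inhibitor of the set with a measurable level.

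Genes were called at a false discovery rate (FDR) under 0.05 by the edgeR quasi-likelihood test, with adjustment over all 13346 genes tested in the 9-column fit and no minimum fold. In set 3 against puro, 2 of the 8 tested genes were called higher and 2 lower, where 55.6% of all tested genes were called (28.0% higher and 27.6% lower). In set 2 against puro, 5 were called higher and 2 lower, where 59.9% of all genes were called (30.0% higher and 29.9% lower). In set 3 against set 2, 1 was called higher and 7 lower, where 60.7% of all genes were called (29.8% higher and 30.8% lower). More than 1 in 2 genes of the table were thus called in each comparison, so a call by itself does not set these genes apart, and the size of each change is given with it. The median absolute log2 fold change of the 8 genes was 0.23 in set 3 against puro, beside 0.32 over all tested genes, and 0.83 in set 2 against puro, beside 0.36. Both sets share the same 3 puro columns, so their fold changes are not independent of each other.

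**Figure D1:**
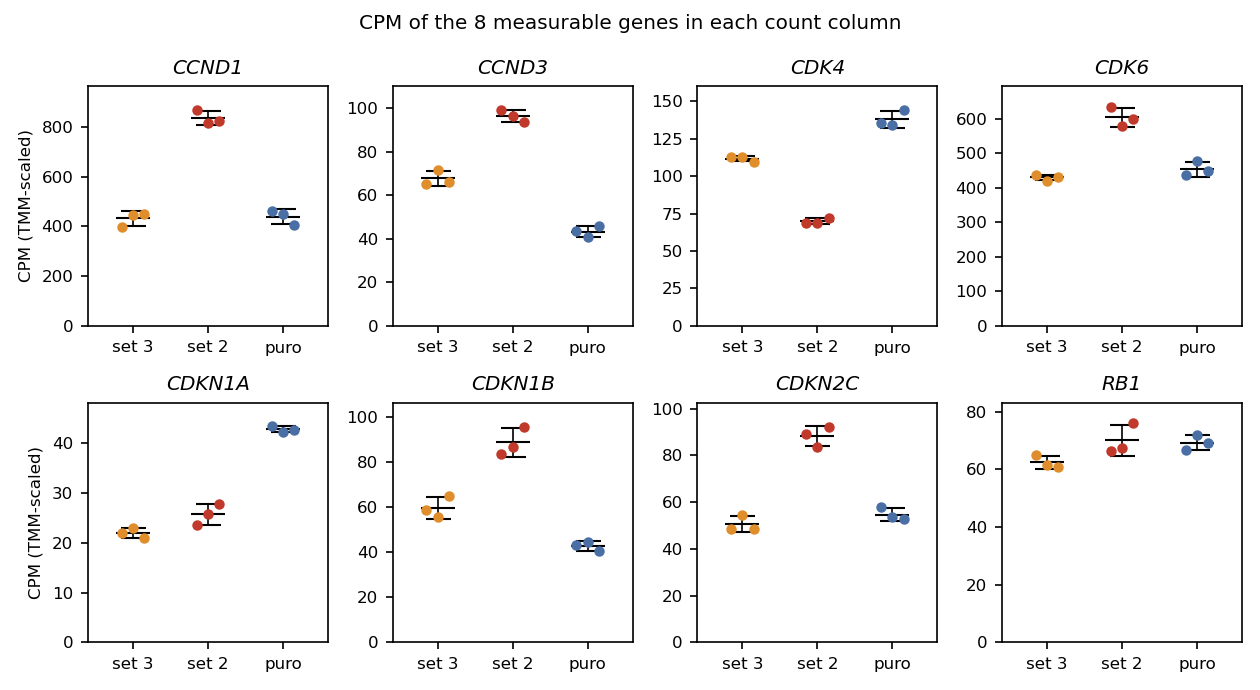
TMM-scaled CPM (vertical axes, from 0) of the 8 measurable genes in each of the 9 count columns; points are columns, and the bars give mean and SD of 3 columns. CCND1, CDK6 and CDKN2C are high in set 2 alone, CCND3 and CDKN1B lie highest in set 2 and lowest in puro, and CDK4 runs the opposite way.

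CCND1 and CCND3, the measurable D-type cyclins, differed in which set moved. CCND1 encodes cyclin D1 (chromosome 11, 69641087 to 69654474, plus strand, GRCh38, protein-coding). It had 398, 446 and 452 CPM in the set 3 columns, 870.0, 814 and 826 CPM in the set 2 columns, and 461, 451 and 406 CPM in the puro columns. The set 2 columns all lay above the rest, and the set 3 and puro columns overlapped. Set 2 stood 1.91-fold above puro (log2 0.93, SE 0.07, edgeR adjusted p = 3.41e-12). For set 3 the log2 difference from puro was -0.02, with a 95% interval of -0.16 to 0.11 (edgeR adjusted p = 0.791). Set 3 lay below set 2 by a log2 difference of -0.95 (SE 0.07, edgeR adjusted p = 1.99e-12). In bulk RNA, a change in the number of cells that express a gene and a change in RNA per cell cannot be told apart.

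CCND3 encodes cyclin D3 (chromosome 6, 41934933 to 42050357, minus strand, GRCh38, protein-coding). It had 65.2, 71.5 and 66.2 CPM in set 3, 99.0, 96.1 and 93.5 CPM in set 2, and 43.6, 40.6 and 45.7 CPM in puro. No column of 1 arm reached the range of another. CCND3 rose 1.56-fold in set 3 (log2 0.64, SE 0.07, edgeR adjusted p = 1.64e-08) and 2.22-fold in set 2 (log2 1.15, SE 0.07, edgeR adjusted p = 1.49e-13), both against puro. The sets differed by a log2 of -0.51, set 3 against set 2 (SE 0.07, edgeR adjusted p = 5.03e-07).

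The kinase genes moved apart. CDK4 (chromosome 12, 57747727 to 57756013, minus strand, GRCh38, protein-coding) had 113, 113 and 109.6 CPM in set 3, 69.0, 68.6 and 72.1 CPM in set 2, and 135, 134 and 145 CPM in puro. Every knockdown column lay below every puro column, and set 2 lay below set 3. CDK4 fell to 80.9% of puro in set 3 (log2 -0.31, SE 0.06, edgeR adjusted p = 0.00021) and to 50.6% of puro in set 2 (log2 -0.98, SE 0.06, edgeR adjusted p = 5.73e-13). The difference of set 3 from set 2 was 0.68 (SE 0.06, edgeR adjusted p = 8.29e-10).

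CDK6, the second kinase partner of the D-type cyclins (chromosome 7, 92604921 to 92836594, minus strand, GRCh38, protein-coding), had 436, 421 and 432 CPM in set 3, 632, 578 and 599.7 CPM in set 2, and 436, 477 and 447 CPM in puro. Set 2 stood above the other 2 arms, and the highest set 3 column was level with the lowest puro column. CDK6 rose 1.33-fold in set 2 (log2 0.41, SE 0.06, edgeR adjusted p = 2.11e-06). In set 3 the log2 difference from puro was -0.08, with a 95% interval of -0.20 to 0.05 (edgeR adjusted p = 0.293). Set 3 lay below set 2 by a log2 difference of -0.49 (SE 0.06, edgeR adjusted p = 1.23e-07).

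Among the inhibitors, CDKN1A was lower and CDKN1B higher in both sets. CDKN1A, which encodes p21 (chromosome 6, 36676460 to 36687339, plus strand, GRCh38, protein-coding), had 22.0, 23.1 and 21.1 CPM in set 3, 23.6, 25.8 and 27.8 CPM in set 2, and 43.5, 42.2 and 42.8 CPM in puro. The knockdown columns all lay well below the puro columns. CDKN1A fell to 51.4% of puro in set 3 (log2 -0.96, SE 0.08, edgeR adjusted p = 1.08e-10) and to 60.04% of puro in set 2 (log2 -0.74, SE 0.08, edgeR adjusted p = 1.15e-08). Set 3 lay below set 2 by a log2 difference of -0.22 (edgeR adjusted p = 0.0205). That difference between the sets was no longer called without set 2 replicate 2 (edgeR adjusted p = 0.054), set 2 replicate 3 (0.136) or set 3 replicate 3 (0.0813).

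CDKN1B encodes p27 (chromosome 12, 12715058 to 12722371, plus strand, GRCh38, protein-coding). It had 58.5, 55.5 and 65.0 CPM in set 3, 83.6, 86.6 and 95.6 CPM in set 2, and 43.1, 44.5 and 40.4 CPM in puro. The 3 arms did not overlap. CDKN1B rose 1.40-fold in set 3 (log2 0.48, SE 0.08, edgeR adjusted p = 5.84e-06) and 2.08-fold in set 2 (log2 1.05, SE 0.08, edgeR adjusted p = 4.35e-12). The sets differed by a log2 of -0.57, set 3 against set 2 (SE 0.08, edgeR adjusted p = 2.85e-07).

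CDKN2C, the INK4 inhibitor p18 (chromosome 1, 50960745 to 50974633, plus strand, GRCh38, protein-coding), had 48.4, 54.6 and 48.6 CPM in set 3, 89.3, 83.4 and 92.1 CPM in set 2, and 57.8, 53.5 and 52.7 CPM in puro. Set 2 stood above the other arms, which overlapped. CDKN2C rose 1.61-fold in set 2 (log2 0.69, SE 0.07, edgeR adjusted p = 5.69e-09). In set 3 the log2 difference from puro was -0.11, with a 95% interval of -0.27 to 0.04 (edgeR adjusted p = 0.194). Set 3 lay below set 2 by a log2 difference of -0.80 (SE 0.07, edgeR adjusted p = 3.06e-10).

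RB1, the substrate of the cyclin D kinases (chromosome 13, 48303726 to 48599436, plus strand, GRCh38, protein-coding), was the gene of the 8 that was called in neither set against puro. It had 65.0, 61.5 and 60.7 CPM in set 3, 66.4, 67.6 and 76.2 CPM in set 2, and 66.8, 72.0 and 69.0 CPM in puro. The set 2 and puro columns overlapped, and the set 3 columns lay just below both. Its log2 difference from puro was -0.15 in set 3 (95% interval -0.30 to -0.0020, edgeR adjusted p = 0.0793) and 0.02 in set 2 (95% interval -0.13 to 0.16, edgeR adjusted p = 0.856). The set 3 difference was called without set 3 replicate 1 (edgeR adjusted p = 0.0355). The log2 difference of -0.17 between set 3 and set 2 passed (edgeR adjusted p = 0.047) but was lost in 11 of 21 alternative settings, with edgeR adjusted p = 0.299 without set 2 replicate 3.

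**Figure D2:**
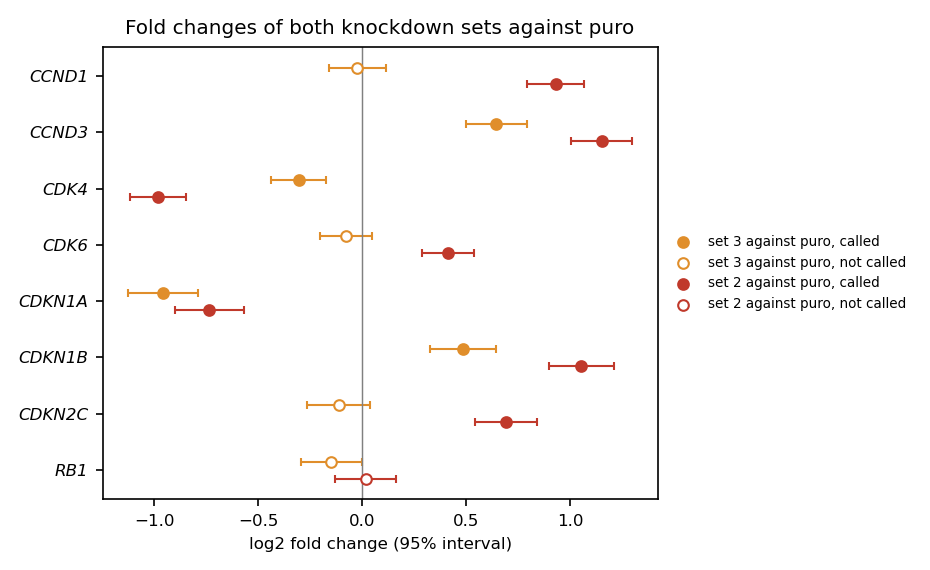
Log2 fold changes (horizontal axis) of set 3 and set 2 against puro for the 8 measurable genes, with 95% intervals from the edgeR fit; filled points were called at FDR under 0.05 and open points were not. CCND3, CDKN1B, CDK4 and CDKN1A are called on the same side of 0 in both sets, while CCND1, CDK6 and CDKN2C are called in set 2 alone.

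Within the G1 set, then, the changes fell into 3 kinds. CCND3 and CDKN1B were higher and CDK4 and CDKN1A lower in both sets. CCND1, CDK6 and CDKN2C were called against puro in set 2 and not in set 3, and for each of these 3 genes the difference between the sets itself passed the test. RB1 was called in neither. The difference between the sets was 0.49 or more in size on the log2 scale for 6 of the 8 genes, all but CDKN1A and RB1. The smallest of these 6, that of CDK6, was larger in size than that of 62.1% of all tested genes. Set 2 lay farther from puro than set 3 in CCND1, CCND3, CDK4, CDK6, CDKN1B and CDKN2C, and set 3 lay farther in CDKN1A and RB1. IGF2BP2 itself was at 43.9% of puro in set 3 and 31.2% in set 2.

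Against all 13346 tested genes, the sizes ran from small to large. In set 2 against puro, the absolute change of CCND3 was larger than that of 90.9% of genes, those of CDKN1B and CDK4 larger than 88.9% and 87.2%, and that of RB1 larger than 2.35%. In set 3 against puro, CDKN1A exceeded 88.3% of genes and CCND3 76.8%, while CCND1 exceeded 4.10%.

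The 4 genes that moved the same way in both sets are represented by their promoters, printed 5′ to 3′ on the gene's strand from RefSeq (GRCh38.p14), from 250 bases before to 50 bases after a start site. RefSeq promoter entries were found for 8 of the 10 genes, and CCND1 and CCND2 had none. Capitals mark the GC box GGGCGG on either strand, a word bound by Sp1-family factors, and overlapping matches run together.
CCND3, chr6:42048639-42048938, minus strand: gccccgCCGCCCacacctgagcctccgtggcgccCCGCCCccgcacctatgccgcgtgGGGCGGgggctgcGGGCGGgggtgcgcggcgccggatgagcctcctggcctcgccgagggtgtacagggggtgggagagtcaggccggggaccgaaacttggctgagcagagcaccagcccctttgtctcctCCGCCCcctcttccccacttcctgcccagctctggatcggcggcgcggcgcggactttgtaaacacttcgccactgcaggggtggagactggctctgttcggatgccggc
CDKN1B, chr12:12717118-12717417, plus strand: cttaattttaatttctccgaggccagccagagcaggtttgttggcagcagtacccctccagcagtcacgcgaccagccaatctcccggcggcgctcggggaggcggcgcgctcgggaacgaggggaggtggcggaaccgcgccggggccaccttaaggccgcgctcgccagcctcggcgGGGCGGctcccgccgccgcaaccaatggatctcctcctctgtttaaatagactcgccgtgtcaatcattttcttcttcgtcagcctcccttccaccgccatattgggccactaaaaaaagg
CDK4, chr12:57752261-57752560, minus strand: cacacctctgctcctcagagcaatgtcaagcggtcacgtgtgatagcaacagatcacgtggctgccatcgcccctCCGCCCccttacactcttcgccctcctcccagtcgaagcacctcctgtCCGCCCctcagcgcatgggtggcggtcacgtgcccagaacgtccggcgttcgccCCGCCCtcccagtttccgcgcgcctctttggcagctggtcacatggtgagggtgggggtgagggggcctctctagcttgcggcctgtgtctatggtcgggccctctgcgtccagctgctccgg
CDKN1A, chr6:36678464-36678763, plus strand: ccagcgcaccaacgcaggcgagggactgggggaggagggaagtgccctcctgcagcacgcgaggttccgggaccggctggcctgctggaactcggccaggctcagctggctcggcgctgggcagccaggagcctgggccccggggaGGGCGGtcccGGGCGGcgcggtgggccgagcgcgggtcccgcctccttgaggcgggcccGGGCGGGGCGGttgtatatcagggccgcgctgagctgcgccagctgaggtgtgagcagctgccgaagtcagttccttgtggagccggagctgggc

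The GC box was matched at 5 places in the CCND3 window, 3 in that of CDK4, 4 in that of CDKN1A and 1 in that of CDKN1B. It was present in 6 of the 8 windows found, beside 45.0% of 35116 RefSeq windows of the same length. Those 6 windows had 62.3 to 78.0% G and C, beside a median of 58.7% over all windows. The windows without a match, of CDKN2C and RB1, had 46.3% and 38.3%. A word of G and C alone is met more often in such GC-rich windows. The E-box CACGTG, the word bound by MYC and its relatives, was matched at 3 places in the CDK4 window and once each in the windows of CDK6 and CDKN2C, beside 7.26% of all windows with a match. The shorter word ACGTG, which hypoxia response elements share and which each E-box holds on both strands, was matched in those 3 windows as well, beside 21.4% of all windows. CCAAT was matched at 3 places in the CDKN1B window and in none of the other 7, beside 34.6% of all windows. The E2F words TTTGGCGC and TTTCGCGC and the TATA word TATAAA were matched in none of the 8, beside 1.15% and 11.5% of all windows. The genes that rose and the genes that fell both held GC boxes. The RefSeq start sites behind the printed windows lie inside the genes as GENCODE v29 places them, 1669 bases from the outermost annotated start for CCND3, 2310 for CDKN1B, 3703 for CDK4 and 2254 for CDKN1A, so none of these windows covers that start. The RB1 window, not printed, lies 172724 bases inside its gene.

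Since IGF2BP2 reads m6A, the word GGAC, the centre of the common m6A consensus, was counted in the longest protein-coding transcript of each gene in GENCODE v29. CCND1 held 17 copies in 4307 bases, or 3.95 per kb, beside a median of 3.69 per kb over 12885 tested genes that could be matched. CDKN2C was the densest of the 10 at 6.89 per kb, above 89.6% of tested genes, and CDK6 the sparsest at 1.55 per kb, above 6.5% of them. CDKN1A stood at 5.29, CDK4 at 4.34, RB1 at 3.96, CDKN1B at 3.39 and CCND3 at 2.92 per kb. These are counts of letters, not measured methylation or binding.

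Levels of different genes were compared by FPKM, a value scaled to gene length and to library size, without TMM factors. In puro the order was CCND1 (99.6 FPKM), CDK4 (67.9), CDK6 (38.1), CDKN2C (17.8), CDKN1A (17.2), RB1 (13.6), CCND3 (10.9) and CDKN1B (9.34). Only the neighbours CDKN2C and CDKN1A overlapped between columns there. In set 3 the order of mean FPKM was CCND1 (96.2), CDK4 (53.9), CDK6 (35.4), CCND3 (16.7), CDKN2C (16.2), CDKN1B (12.8), RB1 (12.1) and CDKN1A (8.66), with overlap between CCND3 and CDKN2C and between CDKN1B and RB1. In set 2 the order of mean FPKM was CCND1 (203), CDK6 (54.2), CDK4 (36.7), CDKN2C (30.8), CCND3 (25.96), CDKN1B (20.8), RB1 (14.8) and CDKN1A (11.03), and no neighbours overlapped. By the deposited FPKM, CDKN1A was thus the lowest of the 8 in both sets, and CDKN1B the lowest in puro. The order between genes depends on the gene lengths behind the FPKM, 4492 bases for CDKN1B and 3901 for CCND3. Their longest protein-coding transcripts in GENCODE v29 hold 2657 and 2394 bases. Shorter lengths would raise the FPKM of both genes, so their places in the puro order may not hold.

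**Figure D3:**
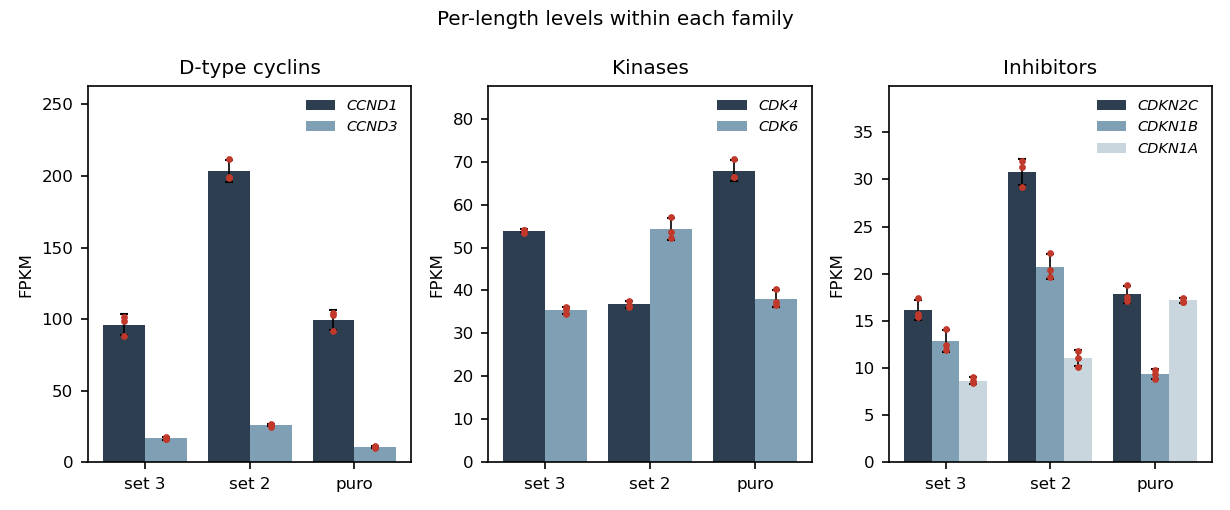
Deposited FPKM (vertical axes, from 0) of the D-type cyclins, the kinases and the inhibitors; bars are means of 3 columns with SD, and red points are the columns. CDK6 lies above CDK4 in set 2 only, CDKN1A lies below CDKN1B in both sets and above it in puro, and CCND1 is several times CCND3 in every arm.

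The composition of each family followed from these levels. The summed D-type cyclin FPKM was 104, 117 and 118 in set 3, 239, 224 and 224 in set 2, and 115, 113 and 103 in puro. CCND1 made up 85.2 ± 0.751% of that sum in set 3, 88.7 ± 0.228% in set 2 and 90.1 ± 1.07% in puro (SD, n = 3 columns each). The sum was thus higher in set 2 than in any other column, and CCND1 remained the main D-type cyclin transcript in all 9 columns.

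The CDK6 to CDK4 ratio of FPKM was 0.659, 0.638 and 0.674 in set 3, 1.57, 1.44 and 1.42 in set 2, and 0.550, 0.608 and 0.529 in puro. It was above 1 in the set 2 columns and under 1 in the other 6. The summed FPKM of both kinases was 89.3 ± 0.573 in set 3, 91.0 ± 2.58 in set 2 and 106 ± 2.59 in puro (SD, n = 3 columns each). The sum thus differed less between the sets than either kinase did. The TMM factors, left out of FPKM, were 0.958 to 0.9768 in set 3 and 1.045 to 1.057 in set 2. The order of the sets in this sum may therefore not hold.

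The CDKN1B to CDKN1A ratio of FPKM was 1.45, 1.32 and 1.69 in set 3, 1.93, 1.84 and 1.88 in set 2, and 0.541, 0.576 and 0.516 in puro. It was above 1 in the 6 knockdown columns and under 1 in the 3 puro columns. The summed FPKM of CDKN1A, CDKN1B, CDKN2B and CDKN2C was 37.7 ± 1.07 in set 3, 62.6 ± 2.97 in set 2 and 44.3 ± 1.34 in puro (SD, n = 3 columns each). The D-type cyclin sum over this inhibitor sum was 3.00 ± 0.128 in set 3, 3.67 ± 0.258 in set 2 and 2.49 ± 0.0819 in puro (SD, n = 3 columns each). An exact permutation test of 3 columns against 3 cannot go below p = 0.10, so these sums and ratios are given without a test.

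The labels define only shIGF2BP2 against puro. When the last number of a column was read as its sample number and the 2 columns of each knockdown sample were summed, 7 of the 8 genes were called, 5 higher and 2 lower, where 58.0% of 13518 tested genes were called (28.8% higher and 29.2% lower). CCND3, CDKN1B, CCND1, CDKN2C and CDK6 rose by 0.91, 0.79, 0.52, 0.33 and 0.18 on the log2 scale, and CDKN1A and CDK4 fell by 0.86 and 0.62, with edgeR adjusted p values from 1.23e-10 for CCND3 to 0.00345 for CDK6. RB1 was not called, at a log2 difference of -0.08 with a 95% interval of -0.19 to 0.04 (edgeR adjusted p = 0.235). Same-numbered columns of the 2 sets did not deviate together (r across genes from -0.0942 to 0.00408). The values therefore do not show that they belong to the same sample. Summing also leaves the difference between the sets out of the spread behind these adjusted p values. If the first number is read as the sample number instead, 2 knockdown samples remain. Under that reading CCND3, CDKN1A and CDKN1B were called (edgeR adjusted p = 0.0253, 0.0151 and 0.0415), and CDK4, CCND1, CDKN2C and CDK6 were not (edgeR adjusted p = 0.112, 0.233, 0.374 and 0.484).

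Other genes of the G1 network were taken from fixed lists and are described by counts of called genes. The median log2 fold change over all tested genes was 0.0040 in set 3 and 0.0060 in set 2, both against puro. Of all tested genes, 28.0% were called higher and 27.6% lower in set 3, and 30.0% and 29.9% in set 2. A count near these shares does not set a list apart. Of 10 E2F factors and DP partners, 2 rose and 2 fell in set 3, and 2 rose and 5 fell in set 2, both against puro. E2F1, an activator of S phase genes, changed on the log2 scale by -0.38 in set 3 and by -0.82 in set 2. E2F8, a repressor of the family, stood at 49.97% of puro in set 3 and 25.4% in set 2, both called. E2F7, its closest relative, rose by 1.59 in set 2 (edgeR adjusted p = 1.08e-16), and its log2 difference in set 3 was -0.03 (edgeR adjusted p = 0.725). E2F5, a partner of the RB1-like proteins, rose by 0.66 in set 3 and changed by -1.63 in set 2.

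Of 7 genes for CDK2, its cyclins and its CDC25 phosphatases, 1 rose and 4 fell in set 3, and none rose and 3 fell in set 2. CCNE1, the cyclin E1 gene that acts after the D-type cyclins, had a log2 fold change of -2.26 in set 2 (edgeR adjusted p = 3.41e-16) and 0.04 in set 3 (edgeR adjusted p = 0.725). CDC25A, a phosphatase that activates CDK2, had -1.03 in set 2 (edgeR adjusted p = 2.18e-12) and -0.05 in set 3 (edgeR adjusted p = 0.571). CCNE2 and CCNA2 had -0.49 and -0.34 in set 3, both called. The D-type cyclins and cyclin E1 thus moved in opposite directions in set 2.

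Of 24 E2F target genes of S phase and mitosis, 5 rose and 10 fell in set 3 (median log2 fold change -0.13), and 5 rose and 13 fell in set 2 (median -0.23). The helicase subunits MCM3 and MCM6 fell in both, to 81.4% and 79.4% of puro in set 3 and to 49.8% and 44.9% of puro in set 2. TYMS, thymidylate synthase, and the mitotic kinase AURKA rose in both sets, by 0.86 and 0.35 in set 3 and by 0.33 and 0.34 in set 2. TOP2A, the mitotic topoisomerase, changed by -0.93 in set 3 and stood at -0.01 in set 2 (edgeR adjusted p = 0.891). These genes also vary with the share of cells in each phase, which was not measured here.

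Of 15 genes for the turnover of D-type cyclins and p27, 4 rose and 3 fell in set 3, and 3 rose and 6 fell in set 2. SKP2, the F-box protein that marks p27 for degradation, changed by -0.35 in set 3 and -0.93 in set 2. DDB1, an adaptor of the ligase that degrades D-type cyclins, changed by -0.21 in set 3 and -0.81 in set 2. FBXO31, also of this list, went the other way and rose by 0.29 in set 3 and 0.41 in set 2, both called. FBXW7, which targets cyclin E, rose by 0.92 in set 3 (edgeR adjusted p = 2.45e-08) and stood at 0.03 in set 2 (edgeR adjusted p = 0.803). GSK3B, the kinase that marks cyclin D1 for export and degradation, rose by 0.46 in set 2 and stood at -0.16 in set 3 (edgeR adjusted p = 0.0648).

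CDKN1A is a classic target of p53, and other genes of that program did not share 1 direction. Of 21 genes for p53, its regulators and its targets, 5 rose and 6 fell in set 3, and 6 rose and 8 fell in set 2. ZMAT3, an RNA-binding target, rose by 0.69 in set 3 and 1.21 in set 2. SESN2, a stress-induced target, changed by -1.07 in set 3 and -0.70 in set 2. The death receptor FAS changed by -0.40 in set 3 and rose by 0.73 in set 2.

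Of 17 transcription factors known to act on CCND1 or the inhibitor genes, 5 rose and 5 fell in set 3, and 6 rose and 8 fell in set 2. MYC, which represses CDKN1A and CDKN2B through ZBTB17, rose by 0.97 in set 3 and changed by -0.39 in set 2. FOXO3, an activator of CDKN1B, rose by 0.72 in set 2 (edgeR adjusted p = 1.22e-09) and stood at -0.04 in set 3 (edgeR adjusted p = 0.623). EGR1 had the largest change of this list in either set, -3.18 in set 3 and -2.54 in set 2. Its levels were low, with means of 0.645 CPM in set 3, 1.01 CPM in set 2 and 5.88 CPM in puro. The puro columns were uneven, at 289, 173 and 154 counts. EPAS1, the gene of HIF-2 alpha, stood at 67.7% of puro in set 3 and at 77.6% in set 2, both called. Whether any of these moved together with a gene of the G1 set beyond these columns was not tested.

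**Figure D4:**
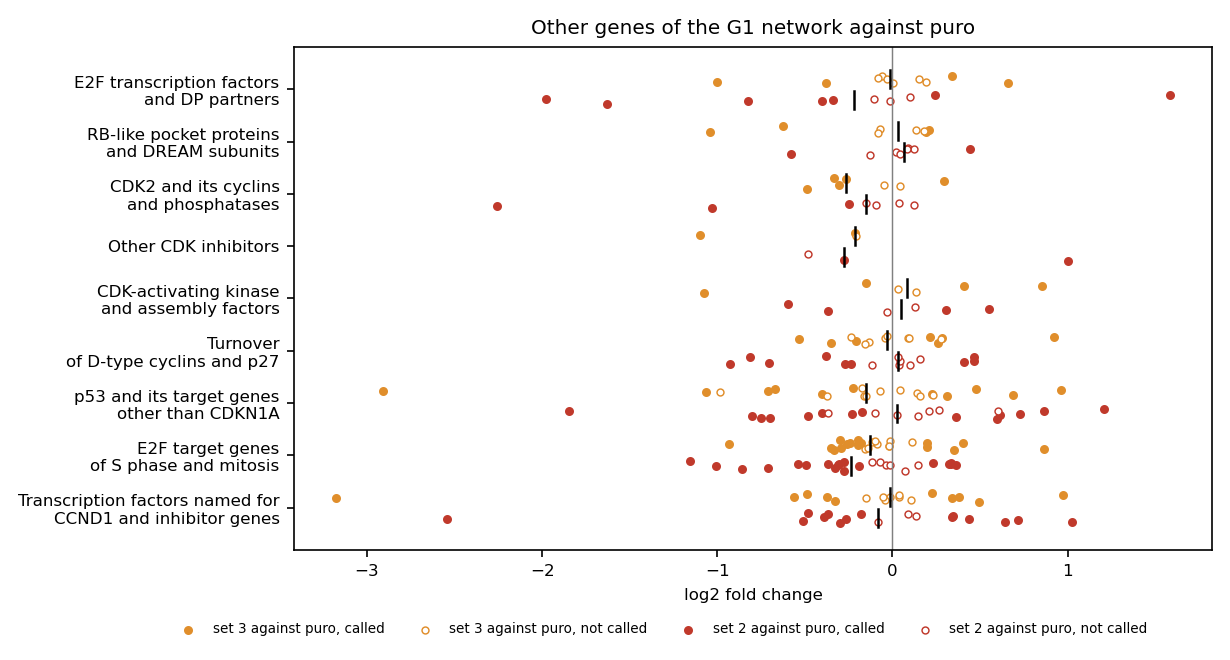
Log2 fold changes (horizontal axis) against puro of the tested genes of 9 lists around the G1 checkpoint, set 3 above set 2 in each row; filled points were called by edgeR at FDR under 0.05, open points were not, and black ticks are list medians. Genes of every list lie on both sides of 0 in each set, except that the 3 other CDK inhibitors all lie below 0 in set 3, and EGR1, CCNE1 and E2F8 have the lowest values in set 2.

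The remaining inhibitor genes outside the set were few. CDKN2D, the INK4 inhibitor p19, rose by 1.00 on the log2 scale in set 2 (edgeR adjusted p = 3.05e-09), as CDKN2C did, and stood at -0.21 in set 3 (edgeR adjusted p = 0.0975). CDKN3, a phosphatase that acts on CDK2, changed by -0.21 in set 3 and -0.28 in set 2. CDKN1C, the third member of the p21 family, changed by -1.10 in set 3 (edgeR adjusted p = 0.00104) and stood at -0.48 in set 2 (edgeR adjusted p = 0.111). Among 8 RB-like proteins and subunits of the DREAM repressor, 2 rose and 2 fell in set 3, and 1 rose and 1 fell in set 2. RBL2 (p130) rose by 0.45 in set 2 and stood at 0.18 in set 3 (edgeR adjusted p = 0.0537).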

How the data were processed

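The authors deposited unnormalized counts of reads for each gene symbol, and FPKM, in 9 columns each. Reads were handled with fastp 0.23.2, STAR 2.7.10a, featureCounts and DESeq2 on hg38, per the submitters' processing notes. How strand and multimapping were handled, and with which annotation, was not given in the sources used here, so reads shared with overlapping or antisense genes cannot be separated. The deposited FPKM are the deposited counts rescaled: 16722 of 16722 genes gave 1 length in every column within a relative tolerance of 1e-06.

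Counts were filtered with filterByExpr, scaled by TMM and tested with edgeR 4.0.16 (quasi-likelihood) in R 4.3.3, on 3 column sets in 1 fit and on 6 samples with the knockdown columns summed. Standard errors came from the F statistic. Replicate columns differed by more than counting noise. Alternatives used other scalings, filters, DESeq2 1.42.0, limma 3.58.1 (voom, and log2(FPKM + 1) or log2(FPKM + 0.1)), a replicate block, a stricter FDR and left-out columns. The test was run on simulated data in which a small part of the genes was changed, in set 2 alone. That run does not cover changes as wide as those called here. The genes, lists and rules were chosen with earlier results of these data known. From each list, the text names among the 2 rising and 2 falling called genes with the smallest FDR in either set against puro. Genes like a member are the 3 nearest by log2 CPM pattern. Of the leukocyte markers, 1 is not reported here.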

Additional observations from a re-analysis of the deposited data

Results flagged for a closer look

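The comparison with puro gave different values in the 2 knockdown sets for all 8 measurable genes, by the edgeR test of set 3 against set 2. The log2 difference of set 3 over set 2 was -0.95 for CCND1, -0.80 for CDKN2C, -0.57 for CDKN1B, -0.51 for CCND3 and -0.49 for CDK6, and it was 0.68 for CDK4. It was smaller for CDKN1A (-0.22) and RB1 (-0.17), whose calls were lost in 4 and 11 of 21 alternatives. Over all tested genes, 60.7% differed between the sets. The cause of these differences was not tested.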

How the results depend on the processing

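Of 648 recomputed fold changes of the 8 genes, 621 kept direction and side of the threshold, 19 lost the call, 4 gained it (all RB1, set 3 against puro) and 4 changed sign. The sign changes were in values that were not called: RB1 in set 2 against puro was -0.010 without puro replicate 1 and -0.047 without set 2 replicate 3, in a range over left-out columns from -0.047 to 0.054, and CCND1 in set 3 against puro was 0.014 without puro replicate 1 and 0.034 without set 3 replicate 1, in a range from -0.076 to 0.034. With each set read as 1 knockdown sample, the genes called in shIGF2BP2 against puro numbered 1285, against 7842. The G1 genes called were 3, against 7. Fewer samples enter that fit, and the difference between the sets becomes part of its spread. What each contributed to the drop was not tested. Every other alternative run left the counts of genes and of G1 genes called within 1.5 times. With library totals in place of TMM, the median of all genes in set 3 against set 2 moved by -0.125 on the log2 scale. Same-numbered columns did not deviate together (r across genes from -0.103 to 0.0387). The values thus do not show that the numbers pair the columns, and with so few columns they cannot exclude it. With the replicate block, RB1 in set 3 against set 2 lost its call (-0.16, edgeR adjusted p = 0.0953). No other call of these genes changed. Levels under 3 counts a column limit CCND2 and CDKN2B.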

Other observations

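The kinase that activates CDK4, CDK6 and CDK2 by phosphorylation is built from CDK7, CCNH and MNAT1. CDK7 had a log2 fold change against puro of -1.08 in set 3 (edgeR adjusted p = 4.33e-09) and 0.55 in set 2 (edgeR adjusted p = 5.22e-05). CCNH, its cyclin, rose in both, by 0.41 in set 3 and 0.31 in set 2. Of the chaperones that fold CDK4, HSP90AA1 rose by 0.85 in set 3 and stood at -0.03 in set 2 (edgeR adjusted p = 0.782), and HSP90AB1 changed by -0.15 in set 3 and -0.60 in set 2. CDC37, the cochaperone that brings CDK4 to HSP90, changed by -0.37 in set 2 and stood at 0.13 in set 3 (edgeR adjusted p = 0.0818).

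Likeness of patterns was measured as the root mean square difference of log2 CPM over the 9 columns, each gene centred on its own mean, among 10309 genes with a mean of at least 5 CPM. The genes nearest to CCND1 were TMEM80, HOXB4 and BTN2A1, at 0.0571, 0.0748 and 0.0780. Those nearest to CDK4 were G3BP1, RUVBL1 and MCM3, at 0.0433, 0.0449 and 0.0482. Those nearest to CDKN1A were GCH1, ATP1B1 and HMGA1, at 0.0642, 0.0791 and 0.0904. Within the G1 set the closest pairs were CCND1 with CDKN2C, at 0.120, and CCND3 with CDKN1B, at 0.144. The 9 columns form 3 tight groups, so many genes share such a pattern.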
